A study of Mus musculus with 16 samples.

Results

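The cytosolic ribosomal protein genes encode the proteins that, together with ribosomal RNA, build the large and the small subunit of the ribosome in the cytoplasm. They were found by their gene symbols (Rpl or Rps followed by a number, with Rplp0, Rplp1, Rplp2, Rpsa and Fau added, and without the Rps6k kinases or symbols that mark pseudogenes). The rule matched 89 symbols among 47643 gene identifiers. Requiring an average of 5 or more normalised counts across the libraries of a subset left 79 of 10426 genes in CD4 cells (46 of the large and 33 of the small subunit) and 77 of 11051 in Treg (44 and 33), with 76 in both.

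The series measured RNA from spleen cells of 8 mice of 2 genotypes, 4 TRaWT and 4 TRaGS. TRaGS mice carry a thyroid hormone receptor alpha that no longer binds DNA, and TRaWT mice are their wild-type littermates. Each mouse gave a CD25- CD4+ library, for which CD4 is the short name here (the protocol calls these cells naive), and a CD25+ CD4+ library, labelled Treg, which makes 16 libraries in 4 groups of 4. No treatment is given in the labels, and neither the age of the mice nor the strain is stated there. The labels name no cell-type-restricted driver of the mutation. The kit primes at poly(A) tails, so each read marks a transcript 3′ end, and values are normalised counts, which are read counts divided by 1 factor per library, set separately for each subset.

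Ribosomal protein genes are among the most highly transcribed genes of a growing cell, and most of their products are needed in equal numbers in each ribosome. Many of their mRNAs begin with a run of pyrimidine bases right at the cap, the TOP motif, through which translation of these mRNAs follows the nutrient and growth factor kinase mTOR. T cells leaving quiescence enlarge their stock of ribosomes before they divide. Each ribosomal protein gene has left processed pseudogenes in the mouse genome, which are DNA copies of its mRNA, and a read that fits several copies may not be counted for the gene.

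RefSeq promoter sequences (GRCm38.p6) were found for 64 of the 89 symbols. A run of 7 or more C or T bases, read on the strand of the gene and reaching within 5 bases of the annotated start, was present in 27 of these 64 (42.2%) and in 14.05% of 27025 mouse promoters. The 8 windows shown belong to genes whose TRaGS values in Treg all lay below their TRaWT values, and capitals mark the pyrimidine run. Each runs from 15 bases before the start annotated with the promoter sequence over the 15 bases from that start on. These starts can differ from the gene coordinates given below. The Rps15 window ends before the gene start given there (80292453), so for Rps15 it may not show the start of the mRNA.
Rpl31 (chr1:39367836-39367865, plus strand): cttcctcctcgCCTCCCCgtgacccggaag
Rpl35 (chr2:39005117-39005146, minus strand): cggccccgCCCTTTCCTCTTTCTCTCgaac
Rpl13a (chr7:45128731-45128760, minus strand): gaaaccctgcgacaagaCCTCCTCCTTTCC
Rps24 (chr14:24490663-24490692, plus strand): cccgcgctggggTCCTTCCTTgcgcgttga
Rps10 (chr17:27635230-27635259, minus strand): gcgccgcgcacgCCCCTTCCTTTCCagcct
Rplp0 (chr5:115559452-115559481, plus strand): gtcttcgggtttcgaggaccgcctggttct
Rps15 (chr10:80292416-80292445, plus strand): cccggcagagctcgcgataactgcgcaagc
Rps19 (chr7:24884577-24884606, plus strand): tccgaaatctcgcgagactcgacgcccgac
The first 5 of these 8 windows hold a run, and the last 3 do not. In the 300 bases around the start, CCGGAAG, a core that ETS factors bind, was found on either strand in 39.1% of the 64 and in 9.12% of all promoters. AAGATGGC, which YY1 binds, was found in 9.38% and 2.88%, and TATAAA in 9.38% and 14.2%. In Treg the 24 tested genes with a pyrimidine run had a median log2 fold change of -0.28, with 19 below 0. The 32 tested genes with a window but no run had a median of -0.27, with 27 below 0.

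The CD4 libraries held 2679119 to 5095278 reads and the Treg libraries 2912038 to 4154027. TRaGS replicate 2 stood apart: it had the most reads in both subsets and the smallest share of reads in Gm42418, a gene overlapping ribosomal RNA sequence (21.1% in CD4, where the other libraries had up to 41.1%, and 20.8% in Treg). In CD4 it also had the largest share of mitochondrially encoded mRNA, 3.71%. Its erythroid markers (6 of 6 found, Alas2 below 1 on average) summed to 404 normalised counts in CD4, where the other 7 libraries had 1.67 to 30.5, and to 111 in Treg, where the others had 1.12 to 71.6. In the labels, the animal numbers of TRaGS replicates 3 and 4 lie farthest from those of the TRaWT mice. T cell markers (Cd3e, Cd3d, Cd3g, Cd4, Trac and Cd28) summed to 6898 to 9738 normalised counts in the libraries of both subsets. Foxp3, the transcription factor that defines regulatory T cells, was measured at 893 to 1330.0 in Treg and 43.1 to 170 in CD4. In bulk RNA, fewer cells that express a gene and less RNA per cell cannot be told apart.

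Ribosomal protein genes took a smaller share of the reads in Treg than in CD4 cells in all 8 animals, and the gap was wider in TRaGS. In CD4 the share was 2.83%, 3.09%, 2.75% and 2.42% in TRaWT replicates 1 to 4, and 2.92%, 3.90%, 2.48% and 2.54% in TRaGS. The genotypes overlapped in CD4, with means of 2.77% ± 0.27 and 2.96% ± 0.65 (SD, n = 4), and TRaGS replicate 2 was the highest library. In Treg the share was 2.21%, 2.25%, 2.26% and 2.06% in TRaWT, and 1.72%, 2.18%, 1.59% and 1.73% in TRaGS. Here the means were 2.196% ± 0.092 and 1.80% ± 0.26, and 3 of 4 TRaGS libraries lay below all TRaWT libraries while TRaGS replicate 2 lay among them. Without TRaGS replicate 2 the TRaGS mean was 1.68% ± 0.074 in Treg and 2.65% ± 0.24 in CD4.

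The share depends on the other genes that take reads, Gm42418 first. Of the reads outside Gm42418, ribosomal protein genes took 2.92%, 3.01%, 3.25% and 3.08% in TRaWT Treg and 2.31%, 2.76%, 2.33% and 2.38% in TRaGS Treg. On this scale every TRaGS Treg library lay below every TRaWT Treg library. In CD4 the TRaWT libraries ranged from 3.88% to 4.39% and the TRaGS libraries were at 4.25%, 4.94%, 3.84% and 3.79%, on both sides of that range. The Treg share divided by the CD4 share of the same animal was 0.781, 0.729, 0.821 and 0.851 in TRaWT and 0.589, 0.561, 0.642 and 0.680 in TRaGS. These ratios did not overlap between genotypes, also not without Gm42418 (0.686 to 0.766 in TRaWT, 0.545 to 0.627 in TRaGS). Shares were summed over genes chosen with results known, so they are given as descriptions without a test.

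**Figure D1:**
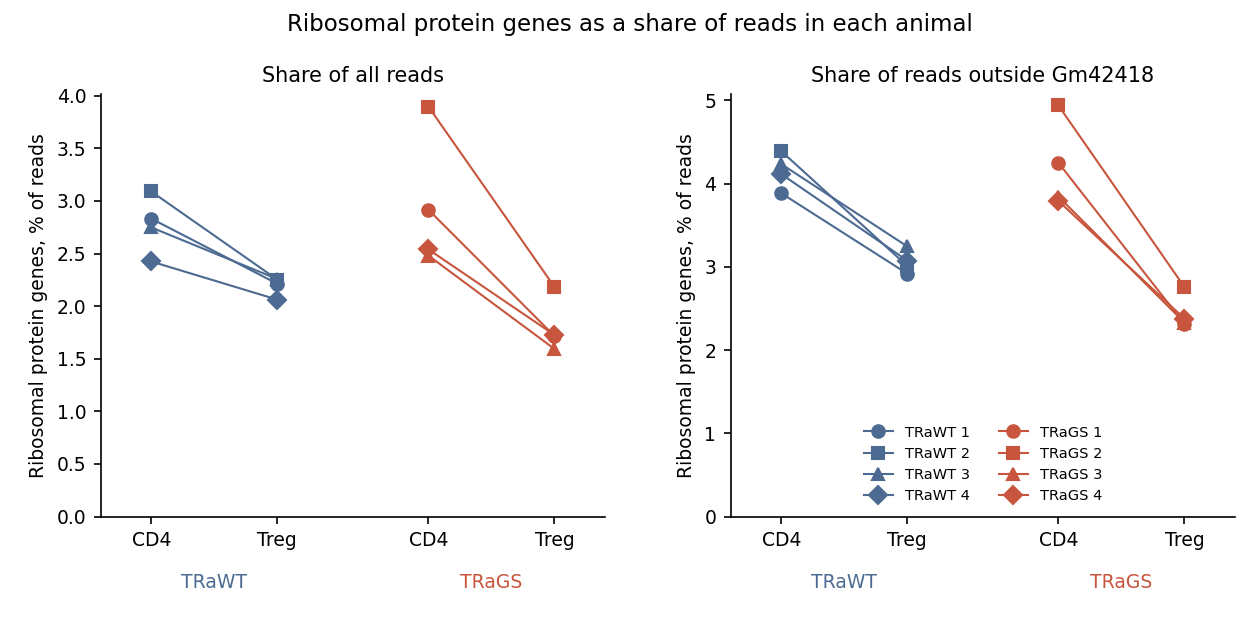
Ribosomal protein genes as a percent of all reads (left) and of the reads outside Gm42418 (right), with 1 line per animal from its CD4 to its Treg library. All 8 lines fall, and outside Gm42418 the TRaGS Treg libraries sit between 2.31% and 2.76%, below the TRaWT Treg libraries at 2.92% to 3.25%.

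Counts per gene varied widely. Rpl4, a large subunit protein that lines the peptide exit tunnel, had the highest mean in both subsets, at 9216 normalised counts in CD4 and 6258 in Treg, and the medians over the genes that passed were 260 and 167. Genes with few pseudogenes had more counts: the 20 symbols with 0 to 3 pseudogenes had medians of 1543 in CD4 and 1009 in Treg. The 31 with 4 to 8 pseudogenes had medians of 144 and 162, and the 33 with 9 or more had 81.1 and 69.6. Rps6, the small subunit protein phosphorylated by the S6 kinases, has 13 pseudogenes and had means of 0.336 and 0.103, so it could not be tested. Low counts of such genes are therefore uncertain as levels, and 10 symbols in CD4 and 12 in Treg fell below the filter. Among the 89 symbols, 5 are annotated as pseudogenes themselves (Rps3a2, Rps3a3, Rps12l1, Rpl6l and Rps4l), of which Rps4l passed in both subsets and Rps3a3 in CD4.

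The spread between animals also followed the level. The pooled SD of log2 values within genotypes had a median of 0.67 in CD4 and 0.32 in Treg. Over the 36 genes above 200 normalised counts in both subsets it was 0.37 and 0.20. Over all genes it was 1.12 and 0.57, so the shares of all genes given below are not matched for level or spread. Among the steadiest genes in Treg were Rps20 (SD 0.11) and Rpl13a (0.12). In CD4 they were Rplp1 (0.14), Rpl13 (0.14) and Rps26 (0.17). Rps4l, Rpl27 and Rps27a varied most in CD4 (2.39, 2.30 and 2.14), and Rps23, Rps27a and Rps29 in Treg (1.83, 1.62 and 1.57), all of them at low counts.

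In CD4 cells no ribosomal protein gene passed the test between genotypes (limma on log2 of the value plus 1, Benjamini-Hochberg over all genes at 0.05), where 0.0575% of all genes were called. The median log2 fold change, TRaGS minus TRaWT, was 0.07 over the 79 genes and -0.01 over all genes, and 35 of 79 were below 0, where 50.7% of all genes were. At an unadjusted p under 0.05, limma gave 1 gene higher and 2 lower, where 2.7% and 2.47% of all genes were. No gene had groups without overlap, where 1.43% of all genes were higher and 1.73% lower without overlap. edgeR and DESeq2 on the recovered reads called 0 as well. Limma estimated infinite prior degrees of freedom in CD4, so its SEs there give the typical spread at a gene's level and not the spread of the gene itself.

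The sign of the CD4 median depended on TRaGS replicate 2. Over the 36 genes above 200, the median log2 deviation from the TRaWT mean was 0.18, 0.61, -0.16 and -0.19 in TRaGS replicates 1 to 4. Replicates 1 and 2 thus lay above TRaWT and replicates 3 and 4 below it, along the split in animal and library numbers. Without TRaGS replicate 2 the median fold change was -0.08 with 55 of 79 genes below 0, and against TRaWT, TRaGS replicates 1 and 2 by themselves gave 0.26. It was also below 0 with upper-quartile scaling (-0.07), which moved the median of all CD4 genes to -0.14, and with quantile normalisation (-0.06), which left that of all genes at -0.02.

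TRaGS replicate 2 did not raise all genes alike. In its CD4 library 9 of the 36 genes lay more than 1 log2 unit above the TRaWT mean, and no other CD4 library had any. Rpl34, a large subunit protein, stood at 6612 normalised counts there against 1759 to 3098 in the other 3 TRaGS libraries. Rps19, a small subunit protein mutated in Diamond-Blackfan anaemia, stood at 6279 against 2227 to 3298, and Rpl13a at 9499 against 3320 to 5125. In the same library Rplp1, a protein of the ribosomal stalk, was at 4193, within the TRaGS range of 3953 to 4842 of the other libraries. Rpl31, which sits at the end of the exit tunnel, deviated by -0.73 log2 units there. The erythroid marker sum of 404 was in the same library. B cell markers went both ways there. Cd79a was at 49.5 normalised counts against at most 2.93 in the other CD4 libraries, and Ighm (964) and Pax5 (61.5) were also highest in this library. Cd79b (2.83), Ms4a1 (2.12) and H2-Ab1 (68.6) were at their lowest of the CD4 libraries. The sum of all B cell markers was 1365, within the TRaWT range of 931 to 1704. The part of these other markers in the higher values of this library was not tested.

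The CD4 genes with the smallest p were Rpl35 and Rpl12 on the lower side. Rpl35, a protein at the tunnel exit, was measured at 105, 91.1, 93.6 and 185 normalised counts in TRaWT CD4 and 10.8, 11.3, 63.6 and 104 in TRaGS. TRaGS replicates 1 and 2 were far below TRaWT while replicate 4 lay within its range (log2 fold change -1.86 ± 0.73, SE, limma adjusted p = 0.943). Rpl12, near the base of the stalk, was at 119, 174, 39.2 and 84.1 in TRaWT and 8.80, 9.90, 62.5 and 85.9 in TRaGS (-1.73 ± 0.80, limma adjusted p = 0.947), with the same 2 TRaGS libraries low. Rps4x and Rps23 followed, at -1.45 ± 0.82 and -2.36 ± 1.37. On the higher side were Rpl26, Rpl34, Rps27l and Rpl13a (0.35 ± 0.18, 0.35 ± 0.19, 1.00 ± 0.56 and 0.30 ± 0.17), each with TRaGS replicate 2 as its highest library.

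In Treg the ribosomal protein genes were lower in TRaGS. Of 77 genes, 63 had a log2 fold change below 0 (49.5% of all genes did), with a median of -0.30 against 0.01 for all genes. Limma called 5 lower and 0 higher, where 0.226% of all genes were called lower. The 4 described here are Rps14, Rps20 and Rps15 of the small subunit and Rpl8 of the large. Without overlap between genotypes, 12 genes were lower, where 2.23% of all genes were, and 2 were higher, where 2.84% were. At an unadjusted p under 0.05, 25 genes were lower and 2 higher, where 4.2% and 4.92% of all genes were.

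Rps14, a protein of the platform of the small subunit, showed the smallest p. It was measured at 2374, 3311, 4656 and 4281 normalised counts in TRaWT Treg and at 2133, 1465, 2389 and 2808 in TRaGS. TRaWT replicate 1 was low and TRaGS replicate 2 lowest of all, and 2 TRaGS libraries reached into the TRaWT range. The means were 3655 ± 1025 and 2199 ± 563 (SD, n = 4), a log2 fold change of -0.73 ± 0.16 (SE, limma adjusted p = 0.0123). Limma estimated 36.8 prior degrees of freedom in Treg, so its SEs there rest mostly on the typical spread at a gene's level. Rps14 itself varied more, with a pooled SD within genotypes of 0.42 log2 units. The call was lost without TRaGS replicate 2, TRaWT replicate 3 or TRaWT replicate 4 (-0.54, -0.59 and -0.63, limma adjusted p above 0.05 in each), and over the 22 alternatives its adjusted p ran from 0.000392 to 0.600006.

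Rps20, in the head of the small subunit, was measured at 4942, 4979, 5212 and 5721 normalised counts in TRaWT Treg and at 3662, 4012, 3408 and 3993 in TRaGS. The 2 groups were tight and far apart, with means of 5213 ± 359 and 3769 ± 289 and a log2 fold change of -0.47 ± 0.12 (limma adjusted p = 0.0335). Rps20 was among the steadiest genes of the Treg libraries, so its difference exceeded the spread between animals although it amounts to a fall of only 27.7%.

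Rps15, whose tail reaches the decoding centre, was measured at 617, 548, 624 and 508 normalised counts in TRaWT Treg and at 499.9, 247, 310.1 and 382 in TRaGS. The highest TRaGS value, in replicate 1, lay just below the lowest TRaWT value (574 ± 55.8 against 359.7 ± 108, -0.72 ± 0.19, limma adjusted p = 0.0496). Rpl8, a protein close to the peptidyl transferase centre of the large subunit, was at 3457, 3350.0, 4384 and 3791 in TRaWT and at 2648, 2466, 2836 and 2685 in TRaGS. All 4 TRaGS values lay below all TRaWT values, at 3746 ± 465 and 2659 ± 152 (-0.49 ± 0.12, limma adjusted p = 0.0342). Leaving out 1 library at a time kept these 4 fold changes below 0, but Rps20 kept the call only without TRaWT replicate 1 or TRaGS replicate 2, Rpl8 only without TRaWT replicate 1 or 2, and Rps15 only without TRaGS replicate 1. On GRCm38 the 4 genes lie at chromosome 18, 60747098 to 60778546 (Rps14, ENSMUSG00000024608), chromosome 4, 3831334 to 3835665 (Rps20, ENSMUSG00000028234), chromosome 10, 80292453 to 80294114 (Rps15, ENSMUSG00000063457) and chromosome 15, 76904078 to 76906314 (Rpl8, ENSMUSG00000003970).

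**Figure D2:**
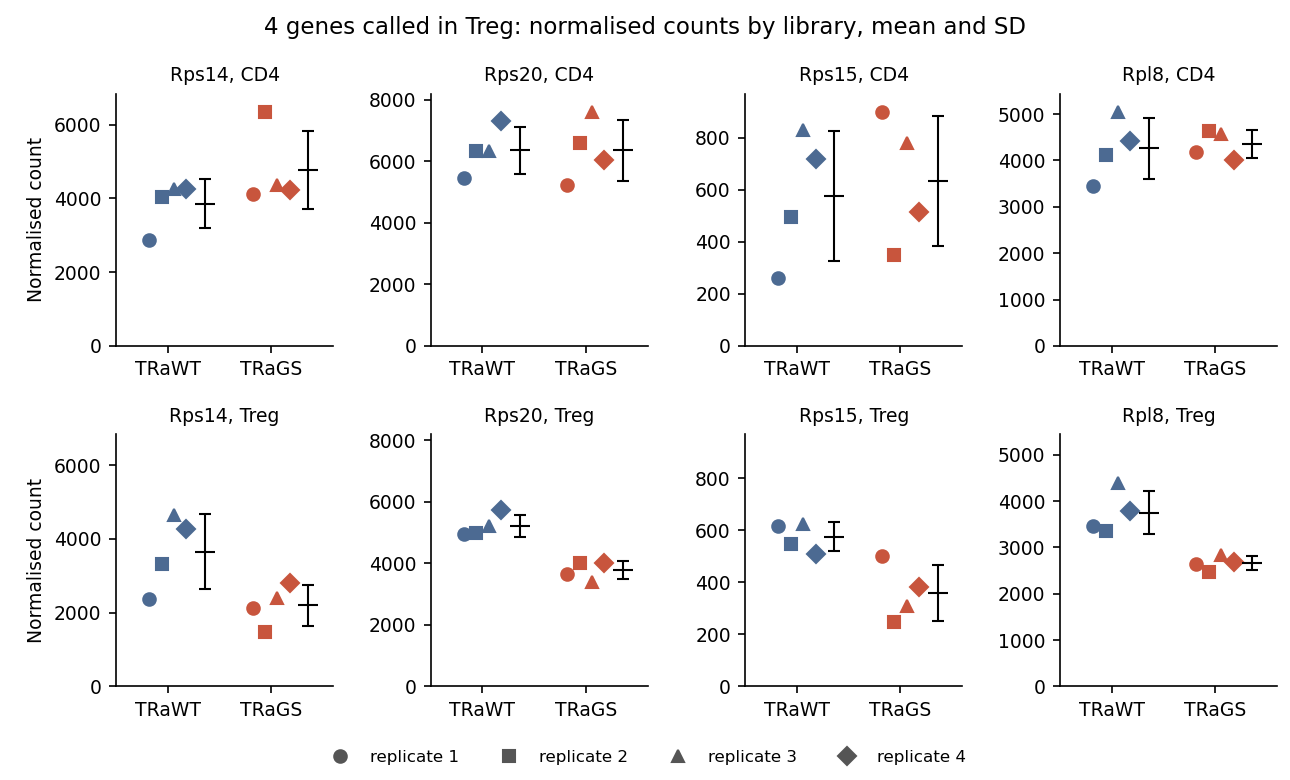
Normalised counts of 4 genes called in Treg, by genotype, in CD4 (top) and Treg (bottom). Symbols stand for replicate libraries and bars for the mean and SD of 4 libraries. In Treg only Rps14 overlapped between genotypes, and in CD4 all 4 did.

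The number of called genes varied with the fit, while the sign of the median did not. It was 6 with DESeq2 and 1 with edgeR on the recovered reads, 1 with upper-quartile scaling, and 0 without the filter on low counts. Without a variance trend limma called 0 of all 11051 genes. It was 3 without TRaGS replicate 2, 2 without TRaWT replicate 2 or TRaGS replicate 1, 1 without TRaGS replicate 3 or 4, and 0 without TRaWT replicate 3 or 4. TRaGS replicates 1 and 2 by themselves gave 1. Without TRaGS replicate 2, 64 of 77 genes were below 0, the median was -0.39, and 27 genes were lower without overlap, where 3.76% of all genes were.

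In TRaGS replicates 1, 3 and 4, 39, 43 and 42 of the 77 genes lay below the whole TRaWT range, against 14.2%, 18.5% and 17.8% of all genes. In TRaGS replicate 2 it was 27 genes, against 24.1% of all genes, while 15 (19.5%) lay above the range, against 24.5% of all genes. Over the 36 genes above 200, the median deviation from the TRaWT mean was -0.44, -0.09, -0.49 and -0.36 log2 units in replicates 1 to 4. Of these 36, 35 had a fold change below 0, with Rpl11 as the exception, and 10 were lower without overlap, where 49.5% and 2.23% of all genes were. These shares of all genes are not matched for level. The median SD within genotypes in Treg was 0.20 for the 36 and 0.57 for all genes.

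**Figure D3:**
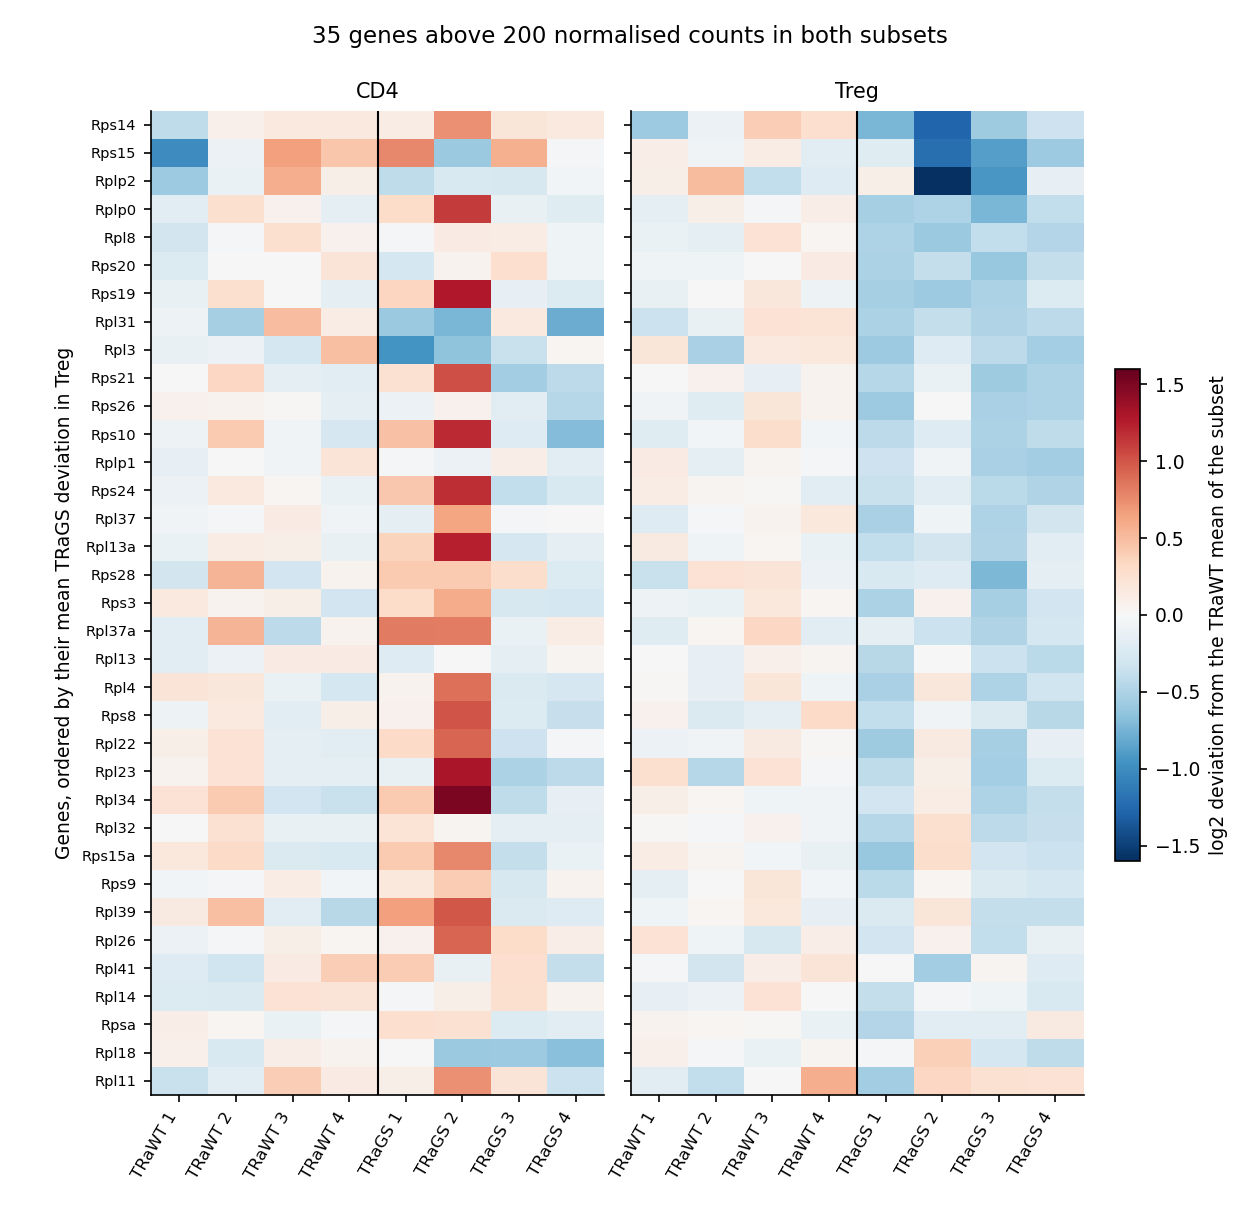
Deviation of each library from the TRaWT mean of its subset (log2 units, blue lower and red higher) for 35 of the 36 genes above 200 normalised counts in both subsets, ordered by their mean in TRaGS Treg. The Treg columns of TRaGS replicates 1, 3 and 4 are blue in nearly all rows, and the CD4 column of TRaGS replicate 2 is red in most rows, deepest in Rpl34.

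The lower values came from both subunits, beside the same 49.5% of all genes below 0 and 2.23% lower without overlap. Of 44 large subunit genes tested in Treg, 34 were below 0 with a median of -0.27, and 6 were lower without overlap. Of 33 small subunit genes, 29 were below 0 with a median of -0.33, and 6 were lower without overlap. By number of pseudogenes, all 17 tested genes with 0 to 3 were below 0, from -0.73 to -0.02, as were 24 of 28 with 4 to 8 and 22 of 31 with 9 or more, where 49.5% of all genes were. These groups also differed in level, as given above. When each gene was summed with the pseudogenes that carry its sequence, the median was -0.29.

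**Figure D4:**
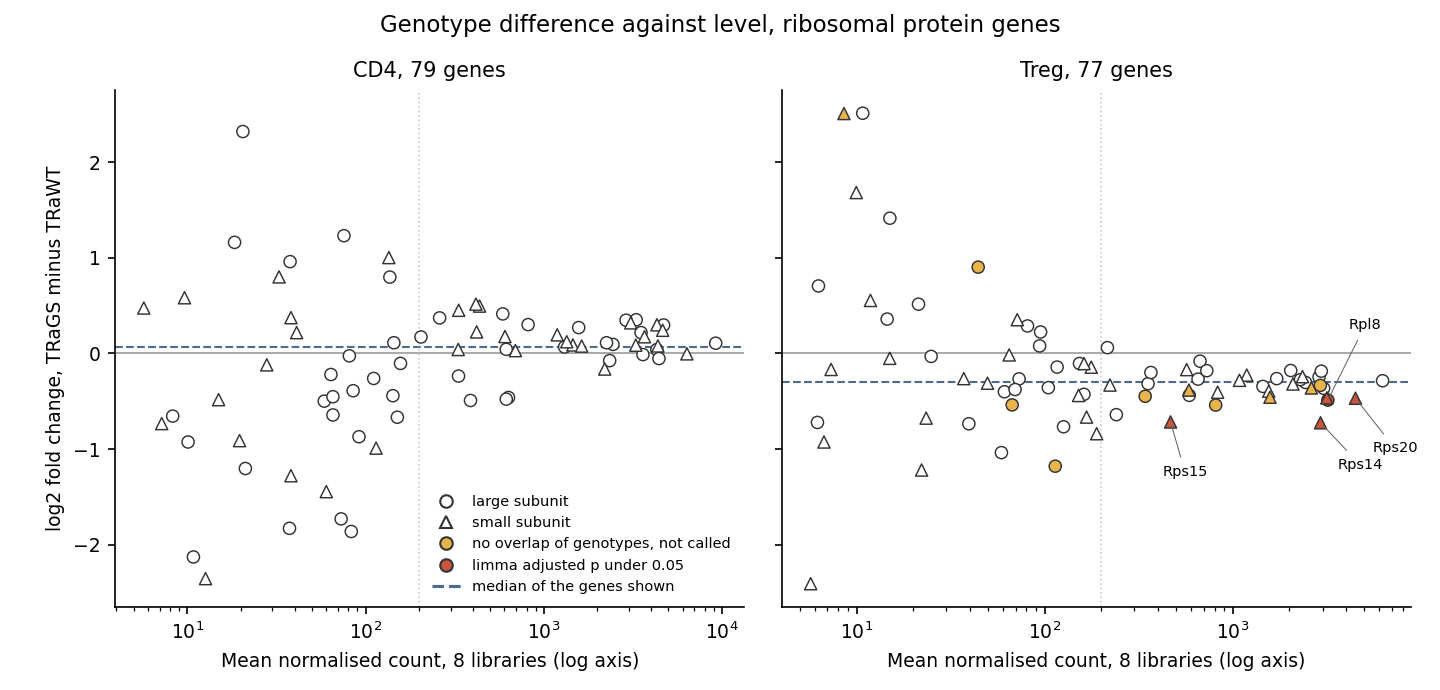
Log2 fold change, TRaGS minus TRaWT, against mean normalised count for the 79 genes of CD4 (left) and the 77 of Treg (right). Above 200 normalised counts (dotted line) the Treg points lie in a band around the median of -0.30, and the CD4 points lie around 0.07 and scatter more widely below 200.

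The stalk of the large subunit, which recruits the translation factors, is built from Rplp0 and dimers of Rplp1 and Rplp2. Rplp0 was measured at 858, 1023, 935 and 1029 normalised counts in TRaWT Treg and at 664, 679, 576 and 726 in TRaGS, without overlap (-0.54 ± 0.15, limma adjusted p = 0.0718). Rplp1 was at 3716, 3070.3, 3499 and 3360.5 in TRaWT and at 2696, 3277, 2379 and 2322 in TRaGS, where replicate 2 reached the TRaWT range (-0.36 ± 0.13, limma adjusted p = 0.268). Rplp2 was at 285 ± 80.8 against 196 ± 94.3, with overlap (-0.64 ± 0.27, limma adjusted p = 0.421). None of the 3 passed the test, and in CD4 their fold changes were 0.27, -0.05 and -0.24.

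Other genes without overlap in Treg had larger or smaller differences that missed the threshold. Rpl35 was measured at 114, 125, 201 and 194 normalised counts in TRaWT Treg and at 57.3, 48.4, 79.2 and 92.4 in TRaGS, a log2 fold change of -1.18 ± 0.32 (limma adjusted p = 0.0548). Rps19 was at 1824 ± 171 against 1329.9 ± 159 (-0.46 ± 0.13, limma adjusted p = 0.109). Rpl13a, which also serves outside the ribosome in the interferon-gamma activated inhibitor of translation, was at 3257 ± 247 against 2585 ± 233 (-0.33 ± 0.12, limma adjusted p = 0.317). Rps24, Rps10, Rpl31 and Rpl30, chosen after their values were seen to complete the 12, had fold changes of -0.36, -0.38, -0.45 and -0.54. Rpl35 is also the only one of the 12 with a negative fold change of over 1 log2 unit in both subsets.

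The genes given next, known for roles beyond the ribosome or made as fusions, had Treg fold changes from -0.17 to 0.06. Rpl13a, described above with such a role, was lower without overlap (-0.33). Rpl5 and Rpl11, which join the smallest ribosomal RNA in a particle that also binds the p53 regulator MDM2, were at 27.8 ± 22.7 against 22.1 ± 11.1 and at 212 ± 66.4 against 219.6 ± 54.5 in Treg (fold changes -0.03 and 0.06). Rpsa, also known as the laminin receptor, was at 599 ± 30.03 against 538 ± 94.8 (-0.17 ± 0.17, limma adjusted p = 0.849). Fau, made as a fusion with a ubiquitin-like protein, was at 64.0 ± 12.3 against 65.5 ± 23.6 (-0.02). Rps27a, made as a fusion with ubiquitin, reached at most 25.8 normalised counts in any library of either subset.

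A few low-count genes were higher in TRaGS Treg. Rps4l, a symbol annotated as a transcribed processed pseudogene, was measured at 0, 4.02, 1.17 and 3.52 normalised counts in TRaWT Treg and at 10.8, 21.7, 8.92 and 18.5 in TRaGS. All 4 TRaGS values were above TRaWT, at very few reads (2.51 ± 1.03, limma adjusted p = 0.411). Rpl17, also without overlap, was at 30.5 ± 9.47 against 58.1 ± 20.3 (0.90 ± 0.48, limma adjusted p = 0.598) and has 36 pseudogenes. Rpl10, one of the last proteins to join the large subunit, and Rps7 had fold changes of 2.51 ± 1.06 and 1.68 ± 0.94 with overlap and limma adjusted p = 0.423 and 0.622.

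Genes with a related symbol were set beside their partners by their own fold changes. Rpl22, a large subunit protein needed for the development of alpha-beta T cells, was at 2484 ± 187 in TRaWT Treg against 2093 ± 501 (-0.27 ± 0.14, limma adjusted p = 0.561), and its paralog Rpl22l1 was at 117 ± 9.42 against 92.7 ± 22.8 (-0.36 ± 0.30, limma adjusted p = 0.808). In CD4 both had fold changes above 0 (0.22 and 0.37), and Rpl22l1 stood at 497 and 443 in TRaGS replicates 1 and 2 against 129 and 169.6 in replicates 3 and 4. Rpl7 and Rpl7l1 had Treg fold changes of 0.29 and -0.11, Rps27 and Rps27l -1.22 and 0.35, and Rps4x and the annotated pseudogene Rps4l -0.26 and 2.51. Rpl39 was at 391 ± 35.1 against 344 ± 68.7 (-0.20), and Rpl39l stayed below the filter. None of these pairs held a gene that passed the test.

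Since both subsets came from the same animals, the log2 value in Treg minus that in CD4 was formed per animal and compared between genotypes, which asks whether the genotype difference depends on the subset. Of 76 genes, 53 had a lower fold change in Treg than in CD4 (49.4% of all genes did), with a median of -0.40 against 0.01 for all genes. Limma called 1 gene lower and 0 higher, where 0.141% and 0.0303% of all genes were, and at an unadjusted p under 0.05 it gave 21 lower and 1 higher, where 3.11% and 3.51% were. Without overlap 5 genes were lower (Rps14, Rplp0, Rpl8, Rps20 and Rpl37, the last named after its value was seen) and 0 higher, where 1.99% and 1.75% of all genes were. The called gene was Rps14, with differences of -0.27, -0.29, 0.13 and 0.01 log2 units in TRaWT animals and -0.95, -2.11, -0.87 and -0.59 in TRaGS animals. All 4 TRaGS animals lay below all TRaWT animals (-1.02 ± 0.19, SE, limma adjusted p = 0.000478), and TRaGS replicate 2 lay farthest. With 106 prior degrees of freedom in this fit, the SE and p rest mostly on the typical spread at the gene's level, not on the spread of Rps14 itself. Rps14 kept this call in 18 of 20 alternatives, among them each fit that left out an animal (limma adjusted p from 2.02e-06 to 0.832 over the 20, the highest without a variance trend).

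The other genes of this comparison missed the threshold. Rps19 (-0.78 ± 0.21), Rpl13a (-0.63 ± 0.19) and Rplp0 (-0.81 ± 0.25) had limma adjusted p = 0.156, 0.252 and 0.268. Rpl8, Rps20 and Rps15, called in Treg, had differences of -0.53, -0.46 and -0.89, with limma adjusted p = 0.292, 0.385 and 0.506. For these 3 the genotype difference is thus not shown to differ between subsets. The largest positive values were those of Rps4l, Rpl10 and Rps23 (3.42, 3.17 and 2.91), all at low counts. The number of calls was 6 without TRaGS replicate 4 and 7 with TRaGS replicates 1 and 2 as the only TRaGS animals, and 1 in each of the other fits without an animal except that without TRaGS replicate 3, where it was 2. Upper-quartile scaling moved the median of all genes to 0.19 here and that of the 76 genes to -0.21.

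Levels of the 2 subsets were set side by side as RPM, reads scaled to the same total outside Gm42418, as a description, since a constant between the tables is not controlled. Of the 76 genes, 38 were lower in Treg in all 4 TRaWT animals, where 10.1% of all genes were, and 29 were lower in all 8 animals, where 3.41% were. The median log2 difference, Treg minus CD4, was -0.47 in TRaWT and -0.61 in TRaGS, against 0.09 and 0.28 for all genes. Rpl39 (337 RPM in CD4 against 166 RPM in Treg in TRaWT), Rpl23 (560.5 against 303) and Rps21 (716 against 401) were lower in Treg in all 8 animals. Rpl13 and Rpl26 were near the same level in TRaWT (1142 against 1138, and 1351 against 1333), and Rpl9 was higher in Treg in all 4 TRaWT animals (40.0 against 67.8).

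The other genes of protein synthesis were followed in lists. Translation factors and other mRNAs of the TOP class had 17 of 22 genes below 0 in Treg with a median of -0.13 and 0 called. Eef1b2, an exchange factor for the elongation factor that brings transfer RNA to the ribosome, was lower without overlap, at 1953 ± 110 against 1403 ± 132 (-0.48 ± 0.13, limma adjusted p = 0.06003). Of 35 genes of ribosome biogenesis 24 were below 0, with a median of -0.17 and 0 called. Mybbp1a, a nucleolar protein, was at 536 ± 76.3 against 337 ± 44.8 (-0.67 ± 0.18, limma adjusted p = 0.0545) and Rrp9, which binds the U3 small nucleolar RNA, at 117 ± 52.6 against 42.8 ± 14.5 (-1.39 ± 0.39, limma adjusted p = 0.0776), both without overlap.

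Genes of RNA polymerase I transcription had 8 of 14 below 0 (median -0.14), and Cd3eap, a polymerase subunit, was at 164 ± 68.9 against 68.4 ± 22.1 (-1.21 ± 0.34, limma adjusted p = 0.0753). Mitochondrial ribosomal proteins, which serve a separate ribosome, had 46 of 74 below 0 (median -0.12), snoRNA host genes 4 of 8 (0.01), and growth control genes of the mTOR and Myc pathways 16 of 28 (-0.02). None of these lists held a called gene in Treg, where 0.959% of all genes were called. In CD4, too, 0 genes of these 6 lists were called. There the counts below 0 were 8 of 20 translation factors, 17 of 35 biogenesis genes, 8 of 14 polymerase I genes, 30 of 73 mitochondrial ribosomal proteins, 3 of 8 snoRNA hosts and 12 of 29 growth control genes.

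**Figure D5:**
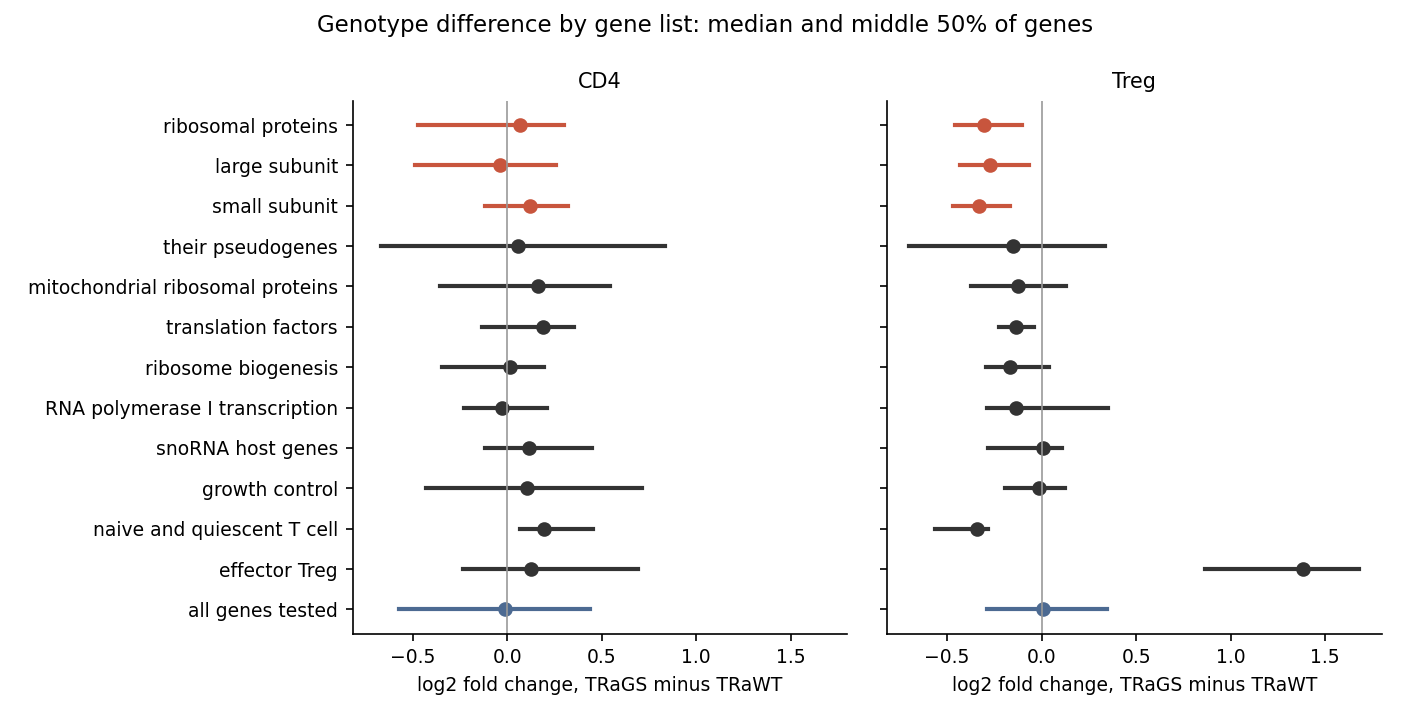
Median (point) and middle 50% of the genes (line) of the log2 fold change, TRaGS minus TRaWT, for gene lists in CD4 and Treg. In Treg the ribosomal protein genes have a median of -0.30, the translation factors -0.13 and all genes 0.01, while effector Treg genes lie at 1.38.

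Genes of T cell state moved beside these values. Their lists were chosen with earlier results of these data known, so the counts over each list are descriptions. In Treg, 15 of 16 genes of naive and quiescent T cells were below 0 (median -0.34), and 4 were called lower, where 0.226% of all genes were. Among them, Bcl2, which protects from apoptosis, fell from 1837 ± 171 to 1050.3 ± 225 (-0.83 ± 0.15, limma adjusted p = 0.000999). Foxp1, which maintains quiescence, fell from 2512 ± 83.0 to 1484 ± 324 (-0.79 ± 0.14, limma adjusted p = 0.000999). Of 19 effector Treg genes 18 were above 0 and 14 were called higher, where 0.733% of all genes were. Among them, Klrg1 rose from 247 ± 71.3 to 685 ± 118 (1.49 ± 0.20, limma adjusted p = 4.17e-06). In CD4, 13 of 16 naive genes were above 0 and 2 were called higher, where 0.0575% of all genes were. There 0 effector genes were called. B cell markers (13 of 13 found) summed to 945 to 1400.4 normalised counts in TRaWT Treg and 1727 to 2198 in TRaGS, of which Ighm made 792 to 1079 and 1150.2 to 1789, while Cd79a was below 1 on average. Plasma cell markers (6 of 6 found, Sdc1 below 1 on average) summed to 78.1 to 148 in TRaWT and 107 to 560 in TRaGS. The Treg markers (6 of 6) summed to 7368 to 8566 in TRaWT and 8415 to 10081 in TRaGS, but they did not move together. Ikzf2 made 3440 to 4390 of the sum in TRaWT and 4577 to 6096 in TRaGS. Tnfrsf18 was also higher, at 464 to 579 and 712 to 850. Il2ra went the other way, at 1351 to 1699 and 1009 to 1370, with TRaGS replicate 2 just above the lowest TRaWT value. Foxp3, Ctla4 and Ikzf4 also overlapped between genotypes. The part of effector state and of these other markers in the lower ribosomal protein values was not tested.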

How the data were processed

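RNA from sorted spleen CD4+ T cells was made into 3′ tag libraries with a forward-strand kit, per the labels' protocols, and the submitters' processing notes name GRCm38; for the aligner and the counter the sources used here give no name. Each subset has its own table of normalised counts, deposited by the authors (a signal unit). All values were whole multiples of 1 step per library within 0.001 (100%), which gave whole reads. Symbols matched 47224 of 47643 identifiers, and coordinates came from GENCODE release 21. Pseudogenes were assigned by sharing at least 20% of 25-base words with a gene's transcripts.

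Genes with a mean of at least 5 were tested with limma 3.58.1 (R 4.3.3) on log2(value + 1), with a variance trend. Values are mean ± SD with n = 4, and fold changes log2 ± SE, which understates changes of low genes. edgeR 4.0.16 called 3 genes in CD4 and 90 in Treg on the recovered reads; DESeq2 1.42.0 was also run. The fits were tested on simulated data. Named genes were those called, those of smallest p or extreme spread, genes of related symbol with their partners and fixed genes, and of each pathway list up to 4 called or 2 of smallest p. The values of 1 called gene are not reported here, though it is counted. The genes and lists were chosen with earlier results of these data known. Replicate numbers come from different animals in the 2 genotypes (r from -0.02 to 0.05), so they do not pair samples. Each library is 1 animal, and reads carry no stated molecular identifiers. Other settings were pseudocounts, filters, scalings, array weights, TRaGS replicates 1 and 2 alone, and leaving out libraries.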

Additional observations from a re-analysis of the deposited data

Results flagged for a closer look

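In 15 of 144 groups of 4 libraries checked the highest or lowest value stood apart from the other 3 by more than the 95% limit of Dixon's test, which chance passes in about 1 of 20 groups. In CD4 these were TRaGS replicate 2 in Rps14 (6333 normalised counts, others 4127 to 4366), Rps27l (441, others 95.3 to 104) and Rps4l (74.2, others up to 6.87), and TRaGS replicate 1 in Rps27a (25.4, others up to 1.03). Among TRaWT CD4 libraries they were replicate 1 in Rps14 (2872, others 4046 to 4261), replicate 2 in Rpl27 (77.7, others 0) and replicate 4 in Rpl35 (185, others 91.1 to 105). In TRaGS Treg they were replicate 2 in Rps26 (1757, others 1170.1 to 1244) and Rpl17 (88.2, others 43.5 to 50.7), replicate 1 in Rpl11 (139, others 240.3 to 257) and Rps29 (3.32, others 0), and replicate 3 in Rpl5 (5.58, others 26.1 to 29.9). In TRaWT Treg they were replicate 1 in Rpl7l1 (71.5, others 183 to 204), replicate 3 in Rps29 (0, others 13.2 to 15.1) and replicate 4 in Rps27a (25.8, others 1.01 to 4.93). TRaGS replicate 2 accounted for 5 of the 15.

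The genotype difference of Rps14 differed between the subsets by -1.02 on the log2 scale, past the threshold of the test of that difference. The outlying values of Rps14 in CD4 are a low TRaWT library and a high TRaGS library, and both enter this value; without TRaWT replicate 1 or TRaGS replicate 2 the call held.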

How the results depend on the processing

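Of the 22 alternatives to the count of 5 genes called in Treg, 10 stayed within 1.5 times. The count was 0 without the filter, 0 without the variance trend, 1 with edgeR, 1 after upper-quartile scaling, 1 with TRaGS replicates 1 and 2 alone, and 0 to 5 when 1 library was left out. The cause was not tested. The count of 1 for the difference between subsets was 0 without the filter, 0 without the variance trend, 7 with TRaGS replicates 1 and 2 alone, and 1 to 6 when 1 animal was left out. edgeR and DESeq2 were not run for that difference. With the replicate block, limma called 6 genes in Treg, 0 in CD4 and 1 for the difference, a change of no more than 1.5 times; the numbers do not pair the animals. The difference in Treg share, -0.39 percentage points (-0.52 to -0.32 leaving out 1 library), was -0.62 without Gm42418 and -0.64 without Gm42418 and mitochondrial genes. The CD4 share difference was 0.18 (-0.13 to 0.34), 0.050 without Gm42418 and 0.086 without both. The Treg median of -0.30 ranged from -0.39 to -0.26 leaving out 1 library, and that of CD4, 0.07, from -0.08 to 0.16. Summing each gene with its pseudogenes, chosen after seeing the data, gave -0.29 and 0.09. The 22 CD4 alternatives called 0. Depth and pseudogenes limit genes under 200 normalised counts, whose log2 values varied more between animals.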
